A study of Mus musculus with 4 samples.

Results

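The interleukin and TNF superfamily genes were described through the accessible regions (peaks) that the authors' annotation assigned to them. They were all annotated peaks whose gene symbol starts with Il, Tnfsf or Tnfrsf followed by a digit, with Tnfrsf11a left out. This gave 124 of 15221 annotated peaks, assigned to 59 of 8173 genes. Of the 124 peaks, 92 belonged to 42 interleukin and interleukin receptor genes, 18 to 8 TNF ligand genes and 14 to 9 TNF receptor genes. The assay was ATAC-seq, a reading of open chromatin by transposase insertion, on cultured periosteal stem/progenitor cells of the mandibular angle, taken from mice at 8 weeks of age. The 2 knockout libraries came from Ctsk-iCre;Plagl1fl/fl mice, in which a Cre driven by the gene of the bone matrix protease cathepsin K deletes Plagl1, a zinc finger transcription factor gene. The 2 control libraries came from Plagl1fl/fl mice, which carry the floxed gene without the Cre, so effects of the Cre and of the deletion cannot be told apart. Osteogenic induction had lasted 3 days in both genotypes, with dexamethasone (a glucocorticoid), β-glycerophosphate and ascorbic acid. The labels do not say whether the 2 libraries of a genotype came from separate animals, so p-values speak for these libraries only and replicate spread may be technical.

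The authors' deposited table of 85925 consensus peaks gives 1 log2 fold, 1 mean signal in CPM (read counts scaled to a common library total), 1 F statistic and 1 FDR per peak. Values per library and their depth were not analysed here. Neither the headers nor the labels name the direction of the fold, and positive values are taken here to mean higher accessibility in the knockout. If the ratio runs the other way, gained and lost change places throughout. A peak is called gained or lost where the deposited FDR (edgeR, by the name of the table) is under 0.05. The annotated table keeps a peak where its p is below 0.05 and its log2 fold is 0.2 or more in size, so the members had already been chosen by the same comparison. Their counts are therefore descriptions. Standard errors (SE) are those implied by the deposited F. They followed mean signal almost alone (r squared 0.997), so the spread of a peak's own values between libraries barely enters any call.

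Interleukins and TNF superfamily ligands are secreted or membrane-bound signals through which immune and stromal cells instruct each other. Their receptors act through kinases or through adaptor proteins that lead to NF-kappaB. In bone, cytokines such as IL-1, IL-6 and TNF promote the formation of bone-resorbing osteoclasts, which come from the myeloid lineage, and are released after injury. Because a peak is assigned to the nearest start site, the gene named beside it need not be the one it regulates.

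Promoters that carry a called peak over the start site are shown because they are where an accessibility change is tied most directly to a gene. Of the 5 called member peaks centred within 250 bp of a start site, those of Il2rg and Tnfsf15 had an entry in the RefSeq promoter table of build GRCm38.p6, and Il23a, Il10rb and Tnfsf9 did not. The sequences run 5′ to 3′ from 250 bases before to 50 after the start, on the minus strand, at chrX:101268206-101268505 for Il2rg and chr4:63745010-63745309 for Tnfsf15. These coordinates belong to GRCm38.p6, whereas peak coordinates in the text are mm39.
Il2rg promoter: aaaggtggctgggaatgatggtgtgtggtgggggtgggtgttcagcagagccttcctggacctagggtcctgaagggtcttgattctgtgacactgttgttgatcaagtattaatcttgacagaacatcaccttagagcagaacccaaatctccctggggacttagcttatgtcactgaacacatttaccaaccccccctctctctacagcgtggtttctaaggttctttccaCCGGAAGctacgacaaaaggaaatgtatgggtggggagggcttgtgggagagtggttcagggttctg
Tnfsf15 promoter: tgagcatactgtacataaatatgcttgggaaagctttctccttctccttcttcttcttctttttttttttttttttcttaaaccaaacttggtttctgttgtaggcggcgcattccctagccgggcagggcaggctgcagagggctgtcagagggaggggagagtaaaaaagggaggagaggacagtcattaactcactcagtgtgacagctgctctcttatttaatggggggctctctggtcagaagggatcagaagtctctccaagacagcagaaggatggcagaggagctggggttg
Capitals mark matches on either strand to a set of motifs chosen after the data were seen: AP-1 (TGANTCA), PU.1 (GAGGAAGT), PLAGL1 (GGGGCCCC), KLF (CCACACCC), ETS (CCGGAAG), the box of SP factors known as GC box (GGGCGG), the core promoter element known as TATA box (TATAAA) and the NF-kappaB motif. The ETS motif overlaps none of the others in these windows, although the PU.1 motif belongs to the same family. The only match was an ETS motif in Il2rg, starting 17 bases before the start, and 8.86% of the 32851 promoters of the table hold this motif. The shares of promoters with a match to the other motifs were 7.81% for AP-1, 3.20% for PU.1, 1.08% for PLAGL1, 3.56% for KLF, 35.7% for the GC box, 13.6% for the TATA box and 4.51% for NF-kappaB.

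Most called peaks of cytokine and cytokine receptor genes were more accessible in the knockout, led by Il4i1, the Tnfrsf1b locus, Il20rb, Il23a and Il2rg. By the authors' deposited table, 28 of the 124 member peaks were gained (22.6%) and 6 were lost (4.84%), against 17.6% gained and 13.1% lost among all annotated peaks. The gained peaks belonged to 20 genes and the lost peaks to 6, no gene had both, and 33 genes had no called peak. By gene, 33.9% had a gained peak and 10.2% a lost peak, against 24.5% and 20.6% of all genes with an annotated peak. Over all 124 peaks, called or not, 88 had a fold above 0 (71.0%, against 56.7% of annotated peaks), and the median log2 fold was 0.35, against 0.30. The share of gained peaks is not far from that of all annotated peaks, and no test of the list was made. In these bulk libraries, more cells of a type and more open chromatin per cell cannot be told apart. The largest folds among gained member peaks were 1.22 near Il6st and 1.13 at Il4i1, and the largest loss was -0.50 at Il1rl1, per the authors' deposited table. Just inside the FDR threshold lay Il1rl1 (0.0483), and just outside it lay Tnfsf8 (0.0510). Members nearest the edge of the annotated table itself were Tnfrsf26, with a p of 0.0499, and Il34, with an absolute log2 fold of 0.20 (-0.20 as signed).

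**Figure D1:**
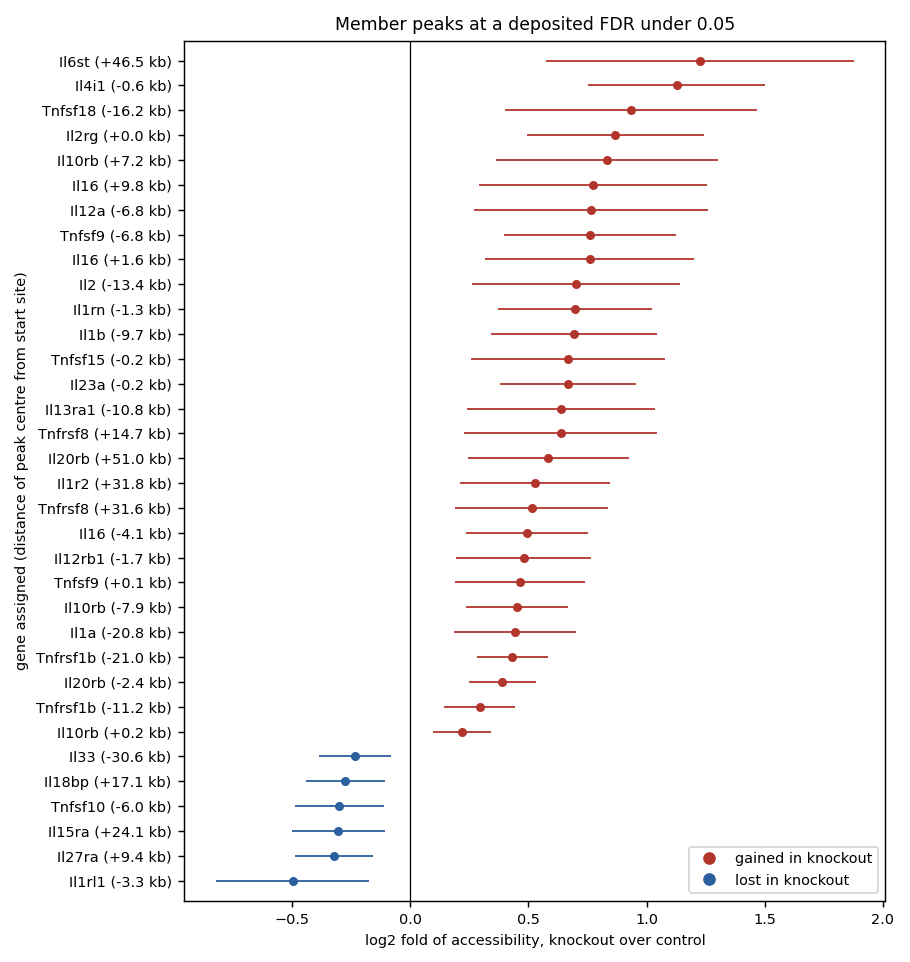
Log2 fold of accessibility (knockout over control, x axis) of the 34 member peaks at a deposited FDR under 0.05, by gene and distance from its start site, with points at the deposited fold and bars of 95% intervals from the implied standard errors. The 28 gained peaks run from 0.22 at Il10rb to 1.22 near Il6st, and the 6 lost peaks from -0.50 to -0.23.

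Gained and lost members differed in signal. The 28 gained member peaks had a median mean signal of 6.06 CPM, and 13 of them lay below the consensus median of 5.51 CPM. The 6 lost member peaks had a median of 24.1 CPM, and none lay below it. Among all annotated peaks the same contrast held, with medians of 8.17 CPM for gained and 17.5 CPM for lost peaks. The median fold of all consensus peaks at the same signal ran from -0.07 to 0.15 over the member peaks. With the trend subtracted, 25 member peaks were gained and 3 lost, against 16.8% and 8.7% of all annotated peaks. Of these, 21 and 1 were among the original calls. Newly passing were 4 peaks above 0, of Il1a, Il10rb, Il17ra and Tnfrsf1b (adjusted p 0.0110 to 0.0374). Below 0, 2 peaks newly passed, of Il1rl1 and Il6st (adjusted p 0.0392 and 0.0435). Dropped from the gained calls were the peaks of Il12a, Tnfsf15, Il13ra1 and Il2, both Tnfrsf8 peaks, and the Il16 peak 9843 bp downstream (adjusted p 0.0518 to 0.0918). Of the lost calls only Il1rl1 still passed (adjusted p 0.0488), and those of Il27ra, Il15ra, Tnfsf10, Il18bp and Il33 did not (0.0531 to 0.206). If the libraries of a genotype varied with a coefficient of variation of 0.1, which the deposited errors barely hold, 1 member peak would be gained, that of Il4i1 (adjusted p 0.0182), and 0 lost, against 0.315% and 0.046% of all annotated peaks.

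**Figure D2:**
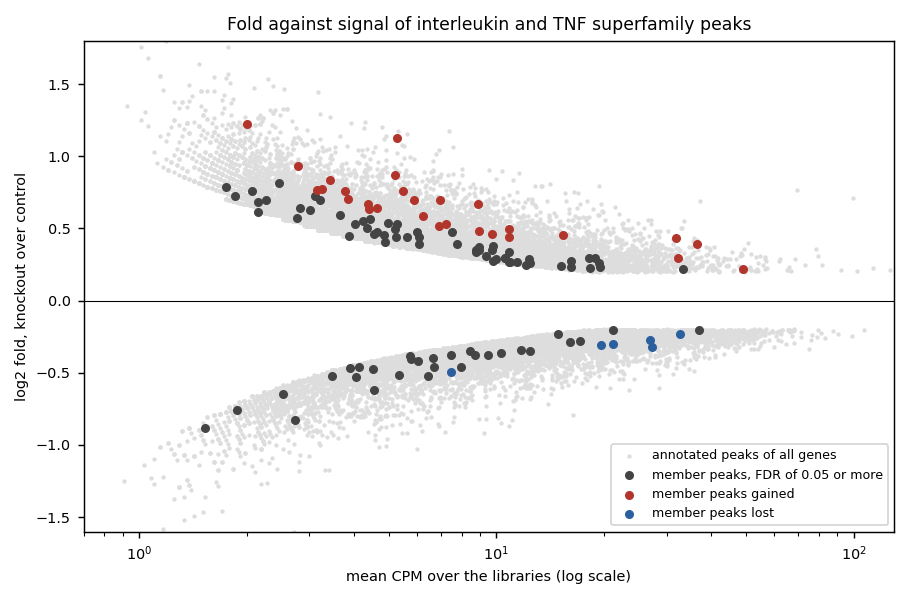
Log2 fold (knockout over control, y axis) against mean CPM over the 4 libraries (log scale, x axis) for the 124 member peaks (dark, red and blue points) and the annotated peaks of all genes (grey, those beyond the axes not drawn). The empty band around 0 is the filter of the annotated table, and the 6 lost member peaks sit at 7.45 CPM or more.

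Among the interleukin ligands, gained peaks lay near both IL-1 genes and near Il23a and Il12a of the IL-12 family. Il1b, the gene of the inflammatory cytokine IL-1 beta, had a gained peak 9706 bp upstream of its start site (chromosome 2, 129222234 to 129223297), where the log2 fold was 0.69 (SE 0.179, FDR 0.00721) per the authors' deposited table. Il1a, its neighbour, had one 20811 bp upstream (129172290 to 129173117) with 0.44 (SE 0.132, FDR 0.0240) per the authors' deposited table. The peaks that did not pass had 0.27 for Il1b, 2283 bp upstream, and 0.29 and 0.27 for Il1a, per the authors' deposited table. All 5 annotated peaks of the pair, across 61.4 kb, had folds above 0, and no consensus peak covered either start site. Il23a, which encodes the p19 subunit that makes IL-23, was gained at its promoter (chromosome 10, 128133948 to 128134441, 8.88 CPM), with 0.67 (SE 0.146, FDR 0.000920) per the authors' deposited table. Il12a, encoding the p35 subunit of IL-12, had a gained peak 6776 bp upstream with 0.77 (SE 0.252, FDR 0.0456) per the authors' deposited table. Its other 2 annotated peaks pointed both ways, at -0.46 and 0.44 per the authors' deposited table, and did not pass. Il12b, of the same family, had annotated peaks at 0.70 (FDR 0.0714) and -0.37 (FDR 0.122) per the authors' deposited table, and neither passed. Il2, the T cell growth factor gene, had a single annotated peak 13420 bp upstream at 0.70 (SE 0.224, FDR 0.0380) per the authors' deposited table.

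Il16, whose product is cleaved to a chemoattractant for CD4+ cells, carried 3 gained peaks, as many as Il10rb and more than any other member gene. They lay in introns 12, 13 and 18 of 18 on chromosome 7, around the start of a short transcript, with log2 folds of 0.50 (SE 0.132), 0.76 (SE 0.226) and 0.77 (SE 0.247) per the authors' deposited table. The other 4 Il16 peaks did not pass, with -0.46 upstream of the gene, -0.28 in intron 1, 0.26 in intron 2 and 0.63 in intron 16, per the authors' deposited table. Il33, the gene of an alarmin stored in the nucleus of stromal cells, had 4 annotated peaks with folds below 0, 1 of them lost. That peak, 30585 bp upstream (chromosome 19, 29871166 to 29872691, 32.7 CPM), had -0.23 (SE 0.0775, FDR 0.0474) per the authors' deposited table. The Il33 start site peak had -0.76 (SE 0.361, FDR 0.209) at only 1.88 CPM, and the other 2 peaks had -0.46 and -0.47, per the authors' deposited table.

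Of the 18 annotated peaks of TNF ligand genes, 4 were gained (22.2%) and 1 lost (5.56%), against 17.6% and 13.1% of all annotated peaks. Tnfsf9, encoding a costimulatory ligand of T cells, was gained over exon 1 (chromosome 17, 57412084 to 57412985), where the log2 fold was 0.46 (SE 0.140, FDR 0.0256) per the authors' deposited table. A second Tnfsf9 peak, 6843 bp upstream inside Gm11110, had 0.76 (SE 0.186, FDR 0.00395) per the authors' deposited table. Together with Tnfsf14 next to it, all 5 annotated peaks of this locus had folds above 0. The promoter of Tnfsf15, whose ligand TL1A acts on lymphocytes and endothelium, was gained (chromosome 4, 63663098 to 63663815, sequence above) with 0.67 (SE 0.209, FDR 0.0336) per the authors' deposited table. Its other peak, 26844 bp downstream, had -0.47 (FDR 0.178) per the authors' deposited table and did not pass. Tnfsf18, encoding the ligand of the receptor GITR, had a gained peak on a LINE element 16187 bp upstream, with 0.93 (SE 0.272, FDR 0.0202) per the authors' deposited table. Its other peak had 0.51 (FDR 0.135) per the authors' deposited table and did not pass. Its neighbour Tnfsf4 had 3 annotated peaks at 0.53 to 0.76 per the authors' deposited table, none of which passed. Tnfsf10, encoding the death ligand TRAIL, had a lost peak 5957 bp upstream at -0.30 (SE 0.0961, FDR 0.0387) per the authors' deposited table, while the peak over its start site had -0.10 (SE 0.186, FDR 0.816) per that table.

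Receptor genes were led by the neighbours Tnfrsf1b, encoding the TNF receptor found mainly on immune and endothelial cells, and Tnfrsf8, encoding CD30. Across 68.8 kb of chromosome 4, 4 of their 7 annotated peaks were gained and all 7 had folds above 0. The peak with the smallest FDR lay in the last exon of Tnfrsf8 but was assigned to Tnfrsf1b, 20983 bp upstream of its start site (144994135 to 144994711, 31.8 CPM), and had 0.43 (SE 0.0770, FDR 2.22e-05) per the authors' deposited table. The other gained Tnfrsf1b peak, 11243 bp upstream, had 0.29 (SE 0.0768, FDR 0.00822) per the authors' deposited table. The 3 Tnfrsf1b peaks that did not pass had 0.30, 0.49 and 0.44, per the authors' deposited table. The Tnfrsf8 peaks, in introns 10 and 2 of 12, had 0.51 (SE 0.165) and 0.64 (SE 0.208) per the authors' deposited table. The peak over the Tnfrsf1b start site (28.3 CPM) differed by 0.03 in log2 (SE 0.0823, FDR 0.894) per the authors' deposited table, so the gained calls of this gene were distal.

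Chains shared by several cytokine receptors also had gained peaks. Il2rg, the common gamma chain of the receptors of IL-2, IL-4, IL-7, IL-15 and IL-21, was gained at its promoter (chromosome X, 100311414 to 100312281), the one printed above with the ETS motif, by 1.82-fold (log2 0.87, SE 0.191, FDR 0.00101) per the authors' deposited table. Il10rb, the second chain of the IL-10 receptor, was gained at 3 of 5 annotated peaks, all 5 above 0. The Il10rb start site peak, broad and strong at 49.1 CPM (chromosome 16, 91202556 to 91204115), had 0.22 (SE 0.0627, FDR 0.0191) per the authors' deposited table and also covers the end of Ifnar2, an interferon receptor gene. Its intron 3 peak had 0.83 (SE 0.240), and the one inside intron 7 of Ifnar2 had 0.45 (SE 0.111), per the authors' deposited table. The other 2 Il10rb peaks had 0.53 and 0.26 per the authors' deposited table and did not pass. For Il20rb, a receptor chain for IL-20 and its relatives, the peak 2354 bp upstream (chromosome 9, 100370302 to 100371458, 36.5 CPM) had 0.39 (SE 0.0722, FDR 4.86e-05) per the authors' deposited table. A weaker gained Il20rb peak lay 51034 bp downstream, at 0.58 (SE 0.174, FDR 0.0240), and another at 0.29 did not pass, per the authors' deposited table. Every one of the 16 annotated peaks of the IL-10 family and all 14 of the TNF receptor genes had a fold above 0. Among all annotated peaks the share was 56.7%, and the IL-6 and IL-12 family was split, 8 above and 8 below. These peaks had passed the filter on p and fold. Start site peaks without annotation were at -0.13 for Tnfrsf14, -0.11 for Tnfrsf21, -0.14 for Tnfrsf23, -0.05 for Il20ra and 0.03 for Tnfrsf1b, per the authors' deposited table. None of them was called.

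Il12rb1, the receptor chain common to IL-12 and IL-23, had a gained peak 1736 bp upstream with 0.48 (SE 0.146, FDR 0.0268) per the authors' deposited table. A peak in its intron 5 had -0.52 (FDR 0.0547) per the authors' deposited table and did not pass. Il13ra1, a receptor chain of IL-13, had its only annotated peak 10847 bp upstream at 0.64 (SE 0.203, FDR 0.0366) per the authors' deposited table. Il6st encodes gp130, the signalling chain of IL-6, IL-11 and related cytokines. Its gained peak, 46543 bp downstream, was small (202 bp wide, 2.01 CPM) and had the largest fold of the called members, 2.34-fold (log2 1.22, SE 0.332, FDR 0.0114), per the authors' deposited table. The other 3 annotated Il6st peaks had folds of -0.83, -0.51 and -0.40 per the authors' deposited table and did not pass.

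Lost receptor peaks were fewer and small in fold. Il1rl1, the gene of ST2, the receptor of IL-33, was lost in intron 1 (chromosome 1, 40475184 to 40475730) with -0.50 (SE 0.165, FDR 0.0483) per the authors' deposited table. Its 2 upstream peaks pointed both ways, at -0.62 and 0.53 per the authors' deposited table, and did not pass. Il15ra, which presents IL-15, was lost in intron 5 of 6 with -0.30 (SE 0.100, FDR 0.0456) per the authors' deposited table. The other 2 Il15ra peaks were above 0, at 0.23 in intron 1 and 0.47 beyond the gene, per the authors' deposited table, and did not pass. Il27ra, an IL-27 receptor chain, was lost in intron 10 of 13, at a peak on a BC1 small RNA repeat, with -0.32 (SE 0.0851, FDR 0.00887) per the authors' deposited table. The IL-1 receptor cluster on chromosome 1, from Il1r2 through Il1r1 and Il1rl1 to Il18r1, held 11 annotated peaks over 463 kb, of which 1 was gained, 1 lost, and 4 had folds above 0.

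Genes of antagonists and decoys are natural brakes on these pathways. Il1rn, the IL-1 receptor antagonist gene, had a gained peak 1310 bp upstream (chromosome 2, 24225272 to 24225853) with 0.70 (SE 0.165, FDR 0.00277) per the authors' deposited table. A peak 7802 bp downstream on a repeat had 0.45 (FDR 0.240) per the authors' deposited table and did not pass. The 2 peaks over its start sites had -0.35 (SE 0.211) and 0.05 (SE 0.163) per the authors' deposited table, and neither passed. Il1r2, which encodes the IL-1 decoy receptor, was gained in intron 5 of 8 at 0.53 (SE 0.162, FDR 0.0296) per the authors' deposited table. Other Il1r2 peaks in introns 5 and 3 had -0.40 and -0.23, and one far upstream in Map4k4 had 0.64, per the authors' deposited table, and none of them passed. Il18bp, which neutralises IL-18, had a lost peak 17112 bp downstream of its start at -0.28 (SE 0.0853, FDR 0.0308) per the authors' deposited table, inside an exon of Numa1. A second peak in that exon had -0.34 and the peak in intron 1 of Il18bp itself, 775 bp from the start, had 0.37 (FDR 0.105), per the authors' deposited table, and neither passed. Tnfrsf11b, the gene of osteoprotegerin, the decoy that restrains osteoclast formation, had 1 annotated peak, 164052 bp downstream, at 0.56 (FDR 0.0835) per the authors' deposited table, and it did not pass. Il4i1, which encodes a secreted amino acid oxidase and not a cytokine, had the smallest FDR of all members. Its peak 621 bp upstream (chromosome 7, 44484888 to 44485294, 5.27 CPM) was 2.18-fold higher (log2 1.13, SE 0.191, FDR 5.94e-06) per the authors' deposited table.

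The 33 genes without a called peak held folds of both signs. In the IL-17 family, whose cytokines drive neutrophil recruitment, none of 7 annotated peaks of 5 genes passed, and folds ran from -0.88 near Il17a to 0.29 at Il17ra per the authors' deposited table. All 3 peaks each of Il10, the anti-inflammatory cytokine gene (0.24 to 0.44), Il17ra (0.22 to 0.29), Il21r (0.38 to 0.59) and Tnfsf14 (0.34 to 0.39) were above 0 per the authors' deposited table, and none passed. The TNF receptor genes Tnfrsf10b, Tnfrsf14, Tnfrsf21, Tnfrsf22, Tnfrsf23 and Tnfrsf26 had 1 peak each, from 0.29 at Tnfrsf21 to 0.68 at Tnfrsf10b per the authors' deposited table. Below 0 at both of their annotated peaks were Il15, a survival factor for natural killer cells (-0.52 and -0.37), and Il34, the other ligand of the Csf1 receptor (-0.29 and -0.20), per the authors' deposited table. Among the 34 genes with several annotated peaks, 17 had all folds above 0, 3 all below 0 and 14 had both.

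Consensus peaks over start sites were then listed without regard to their own p, since they show which of these genes are open in the cells. A gene entered only if it had an annotated peak, members and other genes alike. The list is therefore not free of the filter on p and fold. Start sites could be set for 54 of the 59 genes, and 32 of them (59.3%, against 67.6% of all genes) had a consensus peak over one. For Il10ra, Il23a and Tnfrsf10b the centre of a nearby peak stood in for the start, which puts a peak over it by construction. The same was done for other genes. Per kb of peak, the strongest start sites were Il6st at 72.6, Il6ra at 56.2, a distal Il1r1 start at 46.7, Il6 at 40.3 and Il4ra at 37.2 CPM per kb. The weakest were Tnfsf13b at 5.38, Il2rg at 5.99 and Tnfsf15 at 6.07 CPM per kb, against a median of 24.3 over all genes. Tnfrsf10b, at 6.12 CPM per kb, is counted among the 32 genes although its peak does not reach its start. That peak is 353 bp wide and centred 790 bp from the start. The 5 strongest had log2 folds between -0.05 and 0.01 per the authors' deposited table, with FDRs from 0.809 to 0.999. For Il6st the fold was 0.01 (SE 0.0530), and for Il6 it was 0.01 (SE 0.0704), per the authors' deposited table, so a difference was not detectable at either start site at this precision. The Il6 gene's 2 annotated peaks, 77087 and 64708 bp upstream, had -0.38 and 0.46 per the authors' deposited table and did not pass.

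Of the 34 start site peaks, 6 were gained (17.6%, against 2.83% for start site peaks of all genes) and 0 were lost (against 8.39%). For Il2rg and Il23a the gained start site peak is the gene's only annotated peak, so that peak itself admitted the gene. These shares are therefore descriptions. The 34 as a whole were split almost evenly, with 18 folds above 0 and a median log2 fold of 0.01, against -0.07 for all genes. At an unadjusted p under 0.05, 10 had folds above 0 and 5 had folds below 0. The Tnfrsf10b peak, which does not reach its start, is among the 34, the 18 and the 10. Beside those of Il2rg, Il23a, Tnfsf15, Tnfsf9 and Il10rb, the gained start site peaks included a peak over an Il1r2 start site (chromosome 1, 40124535 to 40125357) that the annotation gives to Gm16894, with 0.72 (SE 0.173, FDR 0.00290) per the authors' deposited table. Of the 17 start sites with the weakest signal per kb 5 were gained, and of the 17 strongest 1, Il10rb. Il1r1, encoding the signalling receptor of IL-1, had -0.35 (SE 0.126, FDR 0.0742) at its weaker start site and -0.05 (SE 0.0834, FDR 0.809) at its stronger one, per the authors' deposited table. The Il1r1 peaks away from its start sites had -0.53 (3049 bp upstream) and 0.28 (28482 bp downstream) per the authors' deposited table and did not pass. No consensus peak lay over a solved start site of 22 genes, among them Il10, Il12a, Il12b, Il17a, Il1a, Il1b, Il2, Il22 and Tnfrsf8.

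**Figure D3:**
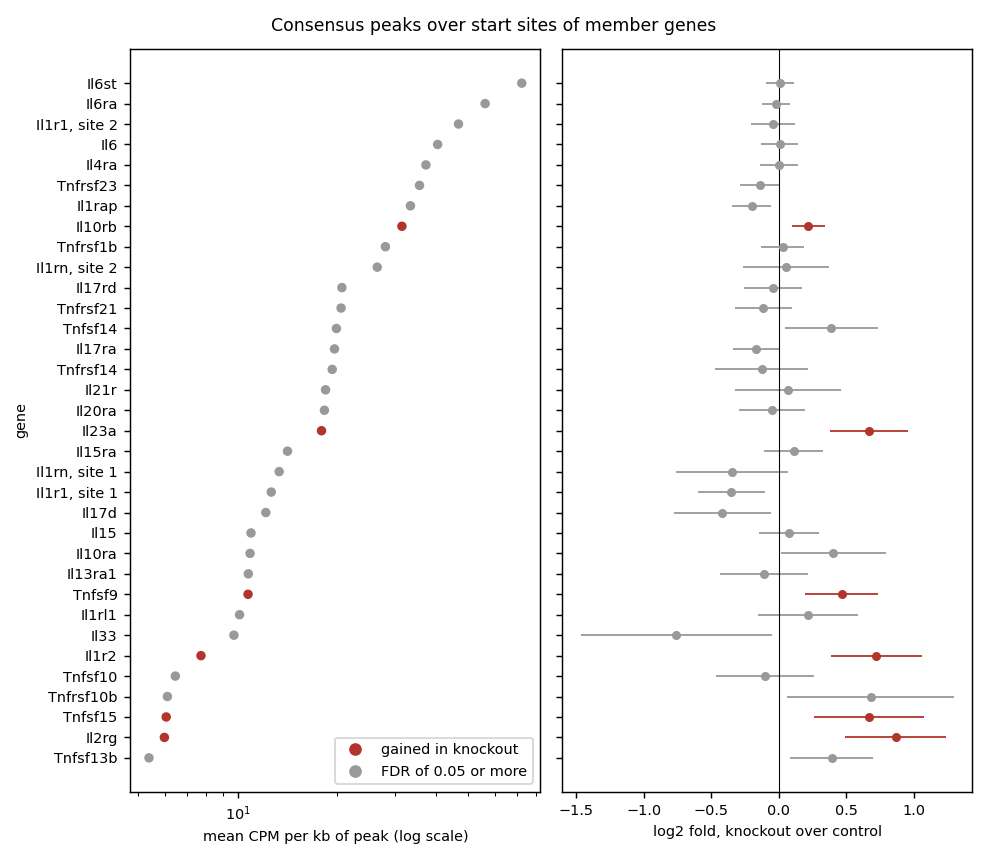
Consensus peaks over the start sites of 32 member genes, ordered by mean CPM per kb of peak (left, log scale), with the log2 fold of knockout over control (right, bars of 95% intervals from the implied standard errors). Il6st at the top, at 72.6 CPM per kb, lies at 0, and 5 of the 6 gained start sites lie in the weaker lower part. The Tnfrsf10b peak is drawn and counted although it does not reach its start.

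Windows of 50 kb to either side of the solved start sites held 474 consensus peaks, most of which (338) carry no annotation. Of these 474 peaks 38 were gained by the authors' deposited table (8.02%) and 6 lost (1.27%), against 4.4% and 3.08% of the peaks within 50 kb of any solved start site. The median log2 fold was 0.09, against 0.01, at a median signal of 6.33 CPM, against 6.48. Windows exist only for genes with an annotated peak, for members and for other genes alike. Of the 38 gained peaks, 27 were assigned to a member and 11 to another gene. Near Il10ra, the ligand-binding chain of the IL-10 receptor, with 0 called peaks of its own, 3 gained peaks were assigned to Mir7086. They lay 16401 to 22698 bp downstream, measured from the centre of the Il10ra start site peak. The strongest of them (chromosome 9, 45163497 to 45164381) had 0.91 (SE 0.141, FDR 4.54e-07) per the authors' deposited table. In the Il10rb window, a gained peak 32050 bp downstream, assigned to A930006K02Rik, had 0.95 (SE 0.187, FDR 0.000174) per the authors' deposited table. In the Il17c window the gained peaks belonged to Cyba, a subunit of the phagocyte oxidase.

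**Figure D4:**
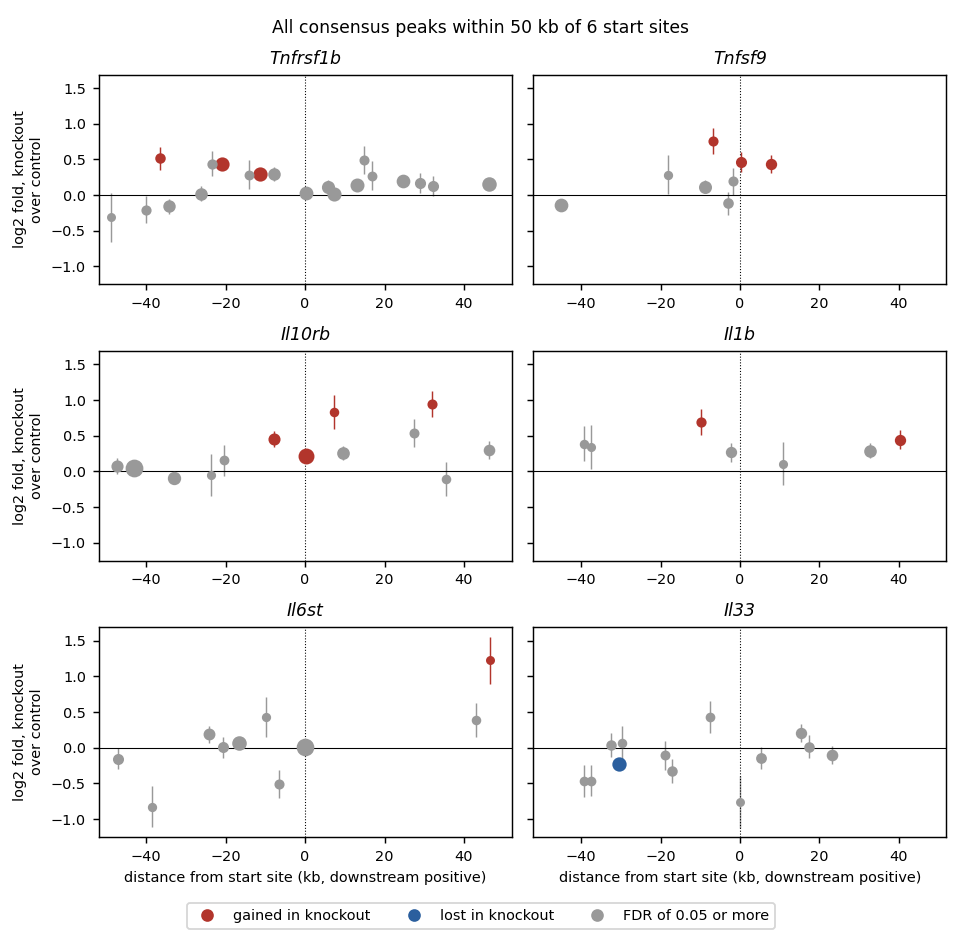
Log2 fold of knockout over control (y axis, bars of 1 implied standard error) for all consensus peaks within 50 kb of 6 start sites, by distance from the start site in kb (x axis), with larger points for higher mean CPM. At Il10rb 4 peaks are gained and at Tnfsf9 3, while at Il6st the strong start site peak lies at 0 and at Il33 1 peak is lost.

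Other genes of the same pathways were read from lists that exclude the members. Among TNF superfamily genes under other names, 6 of 16 had an annotated peak, 3 of these had a gained peak (50.0%) and 0 a lost one, against 24.5% and 20.6% of all genes with an annotated peak. The promoter of Cd40, a receptor of antigen-presenting cells, had 0.50 (SE 0.126, FDR 0.00532), and the peak 3074 bp upstream of Lta, the lymphotoxin gene, had 1.75 (SE 0.369, FDR 0.000508), per the authors' deposited table. The promoter of Tnf had 0.68 (SE 0.144, FDR 0.000602) per the authors' deposited table. The called Lta and Tnf peaks lie between 35420506 and 35438872 of chromosome 17, so these genes share a locus. Among gp130 and colony stimulating factor genes, 10 of 19 had an annotated peak, 5 of these had a gained peak (50.0%) and 1 (10.0%), Lifr, had a lost peak too. The Lifr promoter was lost at -0.27 (SE 0.0768, FDR 0.0170), whereas a peak 55771 bp upstream of Csf1, the growth factor of macrophages, was gained at 1.44 (SE 0.256, FDR 2.02e-05), per the authors' deposited table. Of 28 adaptor and kinase genes, 14 had an annotated peak, with gained peaks at 4 (28.6%) and lost peaks at 3 (21.4%), Irak2 counting in both, which is close to the shares of all genes. A peak 1539 bp upstream of Traf1 had 0.87 (SE 0.183, FDR 0.000554) and the Traf4 promoter -0.31 (SE 0.0819, FDR 0.0103) per the authors' deposited table.

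Peaks of myeloid marker genes were gained alongside these genes. Of 18 macrophage and myeloid markers, 15 had an annotated peak, 12 a gained peak (80.0% of the 15) and 0 a lost peak, against 24.5% and 20.6% of all genes with an annotated peak. Csf1r, the receptor of Csf1, counts both here and among the colony stimulating factor genes. All 12 of their start sites that carried a consensus peak had folds above 0, 6 of them gained (against 2.83% for all genes), at 5.97 to 25.2 CPM per kb over all libraries. Of 18 mesenchymal markers, 13 had an annotated peak, 2 a gained peak (15.4%) and 4 a lost one (30.8%). The genes with a gained peak were Twist2 and Ctsk, the gene that drives the Cre. Of 10 mesenchymal start site peaks, 2 had a fold above 0, 1 was gained and 1 lost. Among start site peaks of all genes 2.83% were gained and 8.39% lost, and their median log2 fold was -0.07. Those mesenchymal start sites had 7.64 to 24.9 CPM per kb and included Prrx1, Col1a1, Postn and Runx2, while Pdgfra and Lepr had no peak over a solved start site. Of 12 lymphocyte markers 1 had an annotated peak, which was not called. Of 8 endothelial markers 5 had an annotated peak, 2 of these a gained one (40.0%) and 3 a lost one (60.0%), Kdr and Pecam1 counting in both. Summed marker levels per group cannot be given without values per library. The part of myeloid cells in the gained calls was not tested. Tnfsf11, encoding the osteoclast factor RANKL, Il11 and Tnfrsf1a had no row among the annotated peaks analysed here.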

How the data were processed

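ATAC-seq was analysed in 2 knockout and 2 control libraries. The submitters' processing notes name DiffBind 3.16.0, deepTools 3.5.5, HOMER, Bowtie2 2.5.4, SAMtools 1.21, Trim Galore 0.6.10, GATK 4.5.5.0 and the mm39 build, giving no role for any of them. Not given in the sources used here: peak caller, transposase shift and normalization. Per the file headers, the authors deposited a p-value, an FDR, an F score, a log2 fold and a mean log2 CPM for each peak, and the deposited table is named for edgeR. Benjamini-Hochberg adjustment of the deposited p-values gave the FDR column back with differences of at most 6.73e-06. The deposited annotation follows the layout of HOMER.

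Each SE is the size of the log2 fold divided by the root of F. The deposited distances gave the start sites (tolerance 2 bp), with the strand from RefSeq (GRCm38.p6) where distances left it open. Where neither settled a start, the centre of a peak within 1000 bp of it stood in, for all genes alike. Among members this was so for Il10ra, Il23a and Tnfrsf10b, whose deposited distances for that peak are 107, -241 and 790 bp. Where both methods gave a strand, 2244 of 2253 genes had the same one. Gene symbols of transcripts came from the RefSeq table of that assembly. Of the 59 genes, 43 matched the promoter table.

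Folds were given for all annotated peaks, with error and FDR for called ones, of every gene with a called peak and, whatever their values, for Tnfsf11, Tnfrsf11b, Il6, Il6st, Il11, Il1b, Il1r1, Tnfrsf1a and Tnfrsf1b where they have a row. Members and lists were chosen with earlier results of these data known. The alternatives were a stricter FDR, a minimum fold, subtraction of the fold's running median (2000 peaks wide, ordered by signal), assumed coefficients of variation between libraries, other windows, and peaks on repeats left out. Leaving out peaks inside another gene was added after seeing the data. The calculations were run on simulated folds whose noise was drawn from the same errors that the calls then used. Such a run cannot test whether these errors suit the libraries. The software was matplotlib 3.10.9, statsmodels 0.14.6, pandas 2.3.3, scipy 1.17.1 and numpy 2.4.6 under Python 3.11.15.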

Additional observations from a re-analysis of the deposited data

How the results depend on the processing

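The counts of 28 gained and 6 lost member peaks, and of 38 gained and 6 lost peaks near member start sites, fell under stricter settings. With an FDR under 0.01 they were 11 and 1, and 17 and 0. Requiring a log2 fold of 0.5 or more in size, the lost counts were 0 and 0, with 19 gained members and 24 gained peaks near start sites. Requiring 1 or more, the counts were 2 and 0, and 2 and 0. An assumed coefficient of variation of 0.05 between libraries left 10 and 0, and 15 and 0. One of 0.1 left 1 and 0, and 2 and 0, the member being Il4i1 (adjusted p 0.0182). One of 0.2 left 0 and 0, and 0 and 0. After subtraction of the signal trend, lost counts were 3 and 3. In windows of 20 and 100 kb, 3 and 10 peaks were lost, beside 27 and 50 gained. Lost counts are small, so these shifts rest on few peaks. Il1rapl1 and Il1rapl2 had no row, so leaving them out changed nothing. Without peaks inside another gene, 24 were gained and 5 lost, and without those on repeats 27 and 5. None of the 47 named peaks could change its direction under the trend subtraction. Annotated folds were 0.2 or more in size, and the trend at member peaks ran only from -0.07 to 0.15. The assumed coefficients alter only the error. No paired analysis was possible because the columns carry no values per library, and neither leaving out a replicate nor DESeq2 was run for the same reason. The depth of each library is unknown.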
